A study of Drosophila melanogaster with 35 samples.

Results

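The steroid hormone ecdysone acts in flies through the ecdysone receptor, a nuclear receptor that binds DNA as a heterodimer with Usp and switches on a first wave of early genes. Many early genes encode transcription factors that carry the signal on to later targets, and others encode enzymes, transporters and secreted proteins. The nuclear lamina is the lamin meshwork under the nuclear membrane, and genes that touch it are often little transcribed. The 9 genes described here are the receptor gene EcR, the ecdysteroid and dopamine receptor gene DopEcR, the transcription factor genes br, Hr3 and vri, the ABC transporter gene E23, the secreted insulin-binding protein gene ImpL2, the methionine sulfoxide reductase gene MsrA (older name Eip71CD) and the cyclin-dependent kinase gene Eip63E. They were chosen by name, as the rows that name 1 of these genes alone, with earlier results of these data known. They were read on 12 of 9006 probe rows, or 9 of 7258 genes with a symbol. The genes br, E23 and vri had 2 rows each, and the rows of a gene were averaged. The br row GM04775 had no value on the TSA and ecdysone arrays, so the br values of those experiments, mRNA change included, are those of LP12157 alone.

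The samples were Kc167 cells, a Drosophila melanogaster line of embryonic origin, on 35 two-colour cDNA arrays in 13 groups. Transcripts were compared in cells grown with against without ecdysone (5 arrays; the labels give no dose or time for these), and untreated mRNA was set against genomic DNA (2 arrays). DamID, in which the bacterial methyltransferase Dam fused to a protein marks the DNA that the protein touches, compared Dam-Lam with Dam in untreated cells (4 arrays) and Dam-Lam delta CaaX, a lamin without the last 4 amino acids that hold its membrane signal, with Dam (4 arrays). Cells given the histone deacetylase inhibitor trichostatin A (TSA) at 100 nM for 24 h gave 2 arrays each of Dam, Dam-Lam and Dam-Lam delta CaaX with over without TSA, and 2 arrays each of both fusions over Dam with TSA. With ecdysone at 1 µM for 24 h there were 2 arrays each of Dam-Lam and of Dam with over without the hormone, and 3 arrays each of Dam-Lam over Dam with and without it. All fusion proteins and Dam were expressed from transfected plasmids in cells that keep their own lamin, and the labels do not say which arrays came from separate cultures, so p-values measure the spread between arrays, which may be technical. The values are log ratios taken as log2, centred on each array's median, and read as channel 1 over channel 2 of the labels. The direction of the deposited ratios is not stated and this reading is likely, not settled: the design text speaks of fusion protein to Dam, and the labels name the treated or mRNA sample first. On the mRNA over genomic DNA arrays the median percentile of 24 ribosomal protein genes was 99.35, so a high value there is much mRNA.

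Arrays of 1 group agreed to very different degrees. The correlation between arrays across all rows was 0.95 for mRNA over genomic DNA, 0.51 to 0.77 for Dam-Lam, 0.42 to 0.69 for Dam-Lam delta CaaX and 0.43 to 0.91 within the TSA groups. It ran from -0.14 to 0.75 for mRNA with over without ecdysone, where the lowest pair was arrays 3426 and 3427. The direct ecdysone DamID arrays hardly agreed (0.017 for Dam-Lam and 0.064 for Dam), and the 6 arrays that set Dam-Lam against Dam in that experiment ran in opposite directions (-0.64 to 0.88), so their sign is not settled. Of 11 measured hemocyte marker genes, a cell type that Kc167 cells are known to resemble, the mRNA level lay between percentile 2.68 and 98.25 with a median of 49.85, and 1 lay above percentile 75. The 2 neuron markers and the 4 fat body markers lay at or below percentile 37.76.

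Ecdysone-treated cells held more mRNA of 6 of the 9 genes: Hr3, ImpL2, E23, vri, MsrA and Eip63E. No member was lower. The largest change was that of Hr3, 5.39-fold, followed by ImpL2 at 3.57-fold and E23 at 3.32-fold. Across all 7089 units tested, 2.17% were called higher and 1.61% lower. The median change of the 9 members was 1.20 on the log2 scale, beside 0.01 for all units. Because the members were chosen with earlier results of these data known, this count and median describe them and do not test the group. In these bulk samples more cells with a transcript and more transcript per cell cannot be told apart.

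Hr3, an early-late nuclear receptor that represses early genes and activates the next nuclear receptor in the cascade, read 3.17, 0.96, 2.94, 2.55 and 2.24 on arrays 3426, 3427, 3450, 3451 and 3452. All 5 arrays were well above 0, with array 3427 far below the other four. The fitted log2 change was 2.43 ± 0.27 (SE, n = 5 arrays, adjusted p = 0.00117, limma), at percentile 99.84 of all units tested. The bZIP repressor vri, known also from the circadian clock, read 2.04, 0.02, 1.33, 1.00 and 1.32 on the same arrays. The others were at or above 1.00, and the value on array 3427 averages rows that went opposite ways there, RE29005 at -0.92 and RE55084 at 0.96. The fit gave 1.23 ± 0.20 (n = 5, adjusted p = 0.00973, limma). Its rows gave 1.44 (RE55084) and 1.02 (RE29005), and the second alone missed the threshold (adjusted p = 0.131, limma). The zinc-finger transcription factor br, a classical early gene of the salivary gland puffs, read -0.58, 0.12, -0.05, -0.06 and -0.12. Its arrays lay on both sides of 0, and the fit of -0.17 ± 0.13 was not called (n = 5, adjusted p = 0.605, limma, 95% interval -0.47 to 0.13).

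Transcripts of the receptors themselves moved less. EcR read 0.77, 0.11, 0.63, 0.45 and 0.33 on the 5 arrays in the same order. Every array was above 0, and the fitted 0.47 ± 0.14 missed the threshold (n = 5, adjusted p = 0.124, limma). Without array 3427 the EcR value was 0.55 and passed (adjusted p = 0.0122, limma). That omission also raised the calls among all units to 353 higher and 456 lower, from 154 and 114, so the gain was not particular to EcR. With any 1 array left out the value ran from 0.37 (without 3426) to 0.58 (without 3452). The adjusted p then ran from 0.0122 to 0.747 (limma). DopEcR, a membrane receptor for dopamine and ecdysteroids, read 0.02, -0.31, 0.29, 0.35 and 0.17. Its arrays spanned 0, and the fit gave 0.10 ± 0.15 (n = 5, adjusted p = 0.808, limma).

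The remaining 4 members, which encode no DNA-binding protein, were all called higher. ImpL2, which binds insulin-like peptides and restrains growth, read 2.14, 1.23, 2.26, 1.85 and 1.64, with no array near 0. The fit gave 1.83 ± 0.17 (n = 5, adjusted p = 0.000514, limma). E23, a transporter that in flies dampens ecdysone responses, read 1.07, 1.20, 2.16, 1.91 and 2.34. Arrays 3426 and 3427 were the low ones, and the fit gave 1.73 ± 0.21 (n = 5, adjusted p = 0.00192, limma). Both E23 rows were called, at 2.29 (LP01481) and 1.17 (RE53253).

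MsrA, which reduces oxidized methionine in proteins and is a long-known ecdysone-inducible gene of Kc cells, read 2.02, 1.09, 0.84, 0.59 and 1.12. Array 3426 stood highest and all others were above 0.5 (1.20 ± 0.16, n = 5, adjusted p = 0.00369, limma). Eip63E, a kinase partner of Cyclin Y, read 0.63, 0.38, 0.52, 0.64 and 0.84. The arrays lay close together at a small increase, and the fit gave 0.62 ± 0.13 (n = 5, adjusted p = 0.0276, limma). Array 3427 gave the lowest value for 6 of the 9 members. Leaving out single arrays ended 2 calls. That of vri was lost without array 3426 (adjusted p = 0.102) or 3451 (0.0758), and that of Eip63E without 3426 (0.155), 3450 (0.117), 3451 (0.162) or 3452 (0.201), all by limma. Hr3, ImpL2, E23 and MsrA stayed called without any 1 array.

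**Figure D1:**
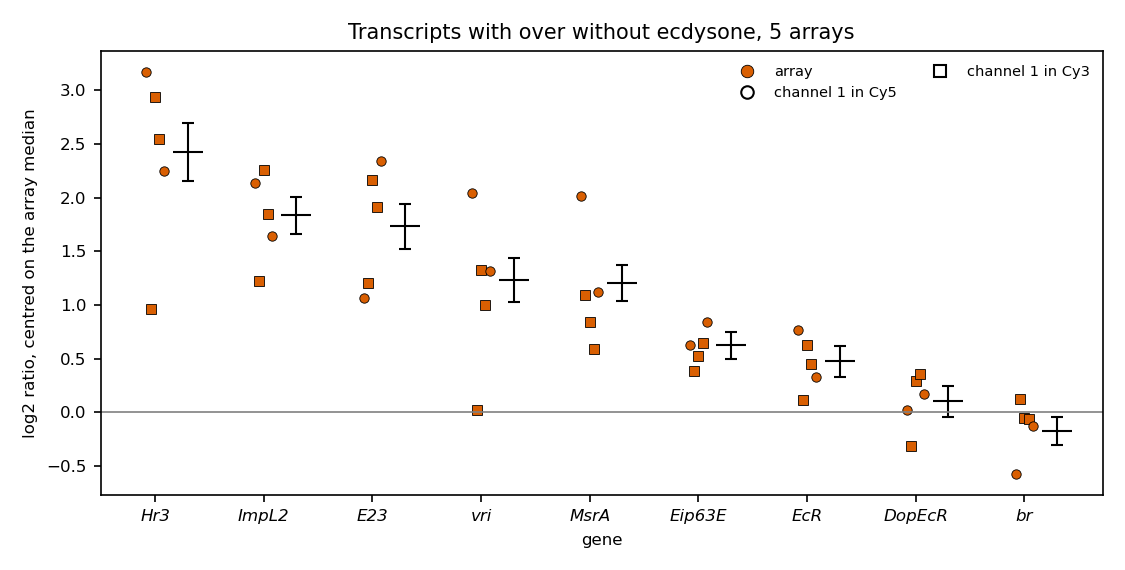
Log2 ratio of mRNA with over without ecdysone, centred on the array median, for each member on each of the 5 arrays (circles, channel 1 in Cy5; squares, channel 1 in Cy3), with the fitted value and its SE as a bar at the right. Hr3, ImpL2 and E23 lie highest, and vri lies at 0.02 on array 3427, the average of rows at -0.92 and 0.96, and at or above 1.00 on the others.

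Other genes of the pathway could be tested only in part. Of 52 listed cofactors, further ecdysone-regulated genes, hormone metabolism genes and partners of the members, 21 were tested. They hold 3 of the 12 listed ecdysone-regulated transcription factors. Of the 21, 1 was higher and none lower, with a median of 0.06, beside 2.17% of all units higher and 1.61% lower. The 1 gene was Cth (older name Eip55E), the ecdysone-inducible cystathionine gamma-lyase gene (0.94 ± 0.19, n = 5, adjusted p = 0.0249, limma). The nuclear receptor gene ftz-f1 (-0.40), the imaginal disc genes ImpE1 (0.20), ImpE2 (-0.03), ImpE3 (0.34) and ImpL1 (0.22), and the hydroxylase gene Cyp18a1 (0.22), which breaks down ecdysteroids, were not called. The other well-known early genes Eip74EF and Eip75B were not among the units analysed here. Of 10 hemocyte markers tested, 1 was called higher, the phagocytic receptor gene eater (1.52 ± 0.25, n = 5, adjusted p = 0.00914, limma), and the median of the list was 0.37. The part of hemocyte genes in the members' change was not tested.

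In untreated cells the 8 members with a value on the mRNA over genomic DNA arrays covered nearly the whole range of transcript levels. MsrA and ImpL2 were high on both arrays, and DopEcR was the lowest. Both channels read the same spot, so these are levels per probe. MsrA read 3.15 and 3.38 on arrays 3458 and 3459, at percentile 95.71 of 8074 units by its mean. ImpL2 read 2.49 and 2.75 (percentile 92.75), below MsrA on both arrays. ImpL2 and MsrA, both induced, were therefore already among the most abundant transcripts without the hormone.

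After them, Hr3 left aside, came Eip63E at 1.18 and 1.25 (percentile 76.57), and br at 0.55 and 0.35 (percentile 60.42). The br level averages rows that differed, GM04775 at 1.03 and 0.72 and LP12157 at 0.07 and -0.02. The low end held vri at -0.81 and -0.69 (percentile 35.24) and E23 at -0.92 and -1.30 (percentile 28.51). DopEcR stood alone at -2.36 and -2.99 (percentile 1.14). Leaving Hr3 aside, no neighbours in this order overlapped between arrays. Hr3 itself read 3.22 on array 3458 and -0.01 on array 3459, which is percentile 95.90 or 49.98, so its level and its place in the order could not be set from these arrays.

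**Figure D2:**
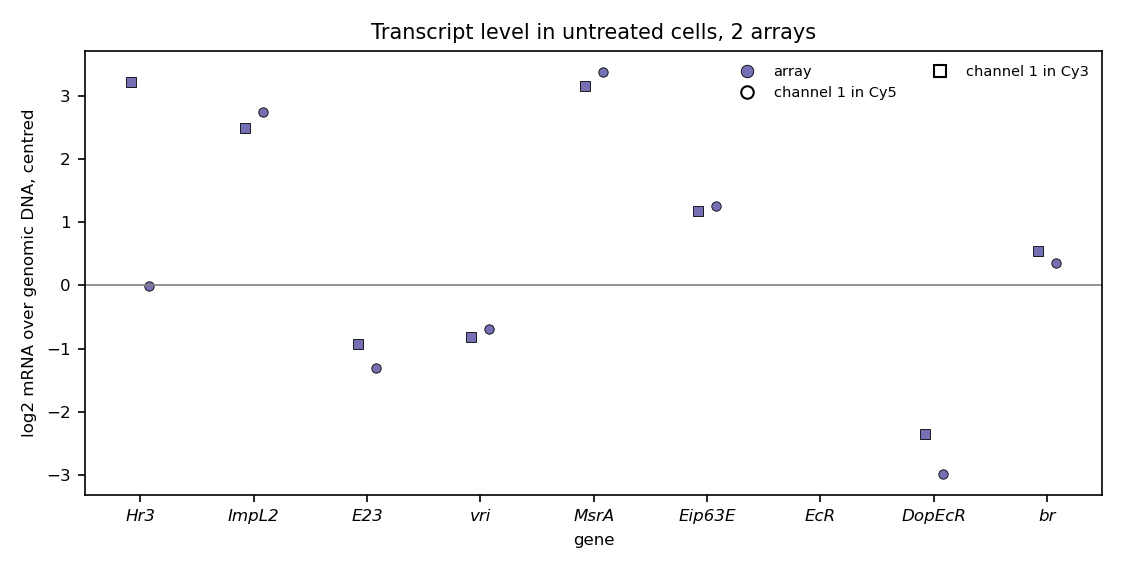
Log2 ratio of untreated mRNA over genomic DNA, centred on the array median, for each member on arrays 3458 and 3459 (circle, channel 1 in Cy5; square, channel 1 in Cy3); EcR has no value. MsrA and ImpL2 lie highest, DopEcR lowest at -2.36 and -2.99, and the Hr3 arrays are 3.22 and -0.01.

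At the lamina of untreated cells, E23, ImpL2 and Eip63E were methylated more by Dam-Lam than by Dam, and no member less. These are 3 of the 8 members tested, beside 20.3% of all 8062 units called higher and 14.9% lower, and the median of the members was 0.41 beside -0.02 for all units. EcR had no value on these arrays. Eip63E read 1.04, 0.69, 0.75 and 0.79 on arrays 2907, 2921, 2945 and 2955. The arrays were close together and all well above 0 (0.82 ± 0.14, n = 4, adjusted p = 0.00777, limma). E23 read 0.56, 0.88, 0.54 and 0.96, again with every array above 0.5 (0.74 ± 0.15, n = 4, adjusted p = 0.0132, limma).

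ImpL2 read 0.26, 1.28, 0.83 and 0.70. Array 2907 was the low one, and the fit gave 0.77 ± 0.19 (n = 4, adjusted p = 0.0241, limma). Its mRNA level lay at percentile 92.75 and its Dam-Lam ratio at percentile 88.18, so the gene stood high in both. Hr3 read 0.42, 0.30, 1.57 and 0.13. Array 2945 stood far above the rest, and the fit of 0.60 ± 0.24 was not called (n = 4, adjusted p = 0.0863, limma). DopEcR was below 0 on all 4 arrays, at -0.23, -0.57, -0.43 and -0.34. That value missed the threshold too (-0.39 ± 0.14, n = 4, adjusted p = 0.0668, limma).

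The other members lay near 0. MsrA read 0.05, 0.03, 0.28 and -0.08 (0.07 ± 0.14). For vri the values were -0.08, -0.09, 0.03 and 0.61, with 1 array apart (0.12 ± 0.15). The averaged br value of 0.22 ± 0.14 hid rows that differed: GM04775 gave 0.64 ± 0.19 (adjusted p = 0.0380) and LP12157 gave -0.19 ± 0.14 (adjusted p = 0.291), both n = 4 by limma. The 3 Dam-Lam calls were lost without array 2907 or 2921 and were kept without 2945 or 2955. Without 2921 only 7 of all units were called higher, so that loss was not particular to these genes. With any 1 array left out the values ran from 0.63 to 0.84 for E23, 0.73 to 0.90 for Eip63E and 0.51 to 1.02 for ImpL2. Without array 2907 the adjusted p was 0.0876 for E23, 0.0958 for Eip63E and 0.0575 for ImpL2, and without array 2921 it was 0.137, 0.0776 and 0.182, all by limma. Without array 2955, Hr3 was called at 0.96 and DopEcR at -0.42, with 1 residual degree of freedom. In that fit array 2945 was the only array with channel 1 in Cy3, so the dye effect absorbed its distance from the others. The spread of a gene then came from arrays 2907 and 2921 alone, and these calls carry little weight.

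Dam-Lam delta CaaX gave another selection of members. EcR, br and ImpL2 were methylated more by it than by Dam, 3 of the 9 tested and none lower, beside 16.1% of 8056 units higher and 16.4% lower. The median was 0.35 for the members and 0.00 for all units. EcR read 0.83, 0.65, 0.45 and 0.70 on arrays 2962, 2966, 2967 and 2968. All were clearly above 0 (0.66 ± 0.12, n = 4, adjusted p = 0.00591, limma), and the value lay at percentile 95.01 of all units. ImpL2 read 0.65, 0.63, 0.81 and 0.80, the tightest set of the members that were called (0.72 ± 0.12, n = 4, adjusted p = 0.00359, limma).

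For br the arrays were 0.15, 0.69, 0.66 and 0.59. Array 2962 was low, and the fit gave 0.52 ± 0.13 (n = 4, adjusted p = 0.0182, limma). Its rows gave 0.50 (GM04775, adjusted p = 0.0729) and 0.55 (LP12157, adjusted p = 0.00995), so LP12157 alone passed (n = 4, limma). By array they were unlike, at -0.05, 1.22, 0.51 and 0.30 for GM04775 and 0.36, 0.16, 0.81 and 0.87 for LP12157. The members Eip63E, MsrA and E23 lay just short of the threshold with every array above 0. Their fits were 0.35 ± 0.12 (adjusted p = 0.0506), 0.34 ± 0.12 (adjusted p = 0.0524) and 0.35 ± 0.13 (adjusted p = 0.0619), each n = 4 by limma. The rows of E23 differed: LP01481 passed singly (0.44, adjusted p = 0.0349) and RE53253 did not (0.25, adjusted p = 0.134, limma). DopEcR was below 0 on all 4 arrays, between -0.40 and -0.19 (-0.29 ± 0.12, n = 4, adjusted p = 0.0944, limma). Hr3 (-0.10) and vri (0.02) had arrays on both sides of 0. The br call was lost without array 2967 (adjusted p = 0.104) or 2968 (0.0834) and that of EcR without 2968 (0.0547), by limma; Eip63E (0.0387) was called without array 2962, and E23 (0.0175) and MsrA (0.0334) were called without 2966.

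**Figure D3:**
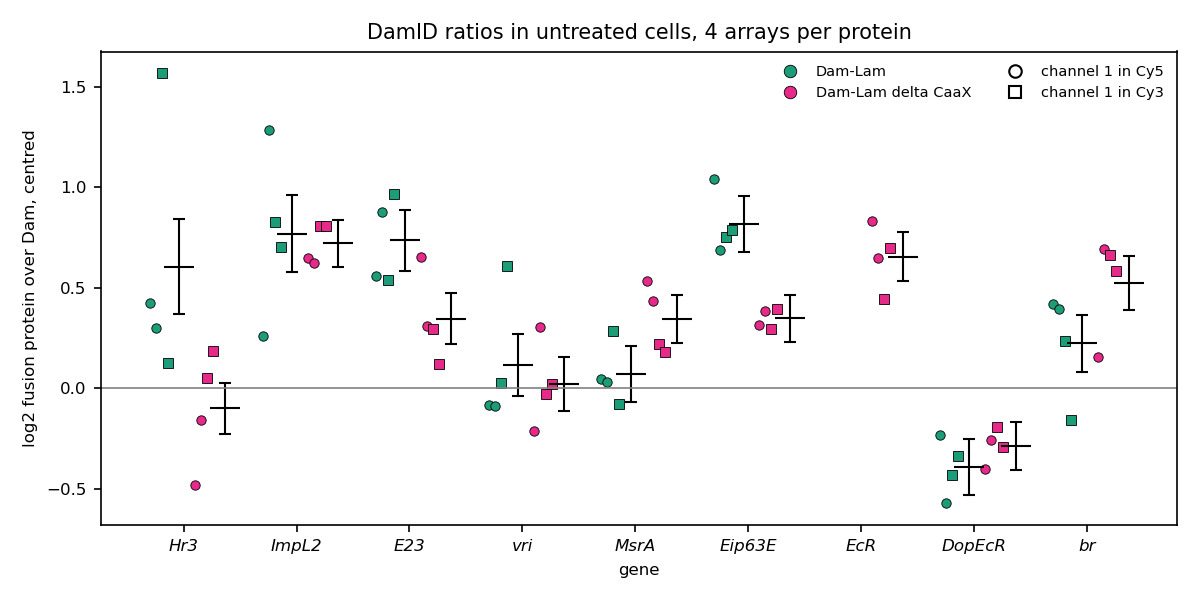
Log2 ratio of the fusion protein over Dam in untreated cells, centred on the array median, for each member on 4 Dam-Lam arrays and 4 Dam-Lam delta CaaX arrays (circles, channel 1 in Cy5; squares, channel 1 in Cy3), with the fitted value and its SE as a bar. ImpL2 lies above 0 on all 8 arrays and DopEcR below 0 on all 8; EcR has no Dam-Lam value.

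Tested against each other on the 8 arrays together, no member's difference between Dam-Lam and Dam-Lam delta CaaX passed the threshold, so the differing selections of called members were not shown to differ. The test called 0 of 8 members, beside 21.1% of 7711 units higher and 14.1% lower with Dam-Lam. The nearest to a call were Eip63E (0.47 ± 0.17, 95% interval 0.10 to 0.84, adjusted p = 0.0511) and Hr3 (0.70 ± 0.28, interval 0.10 to 1.31, adjusted p = 0.0677), each n = 8 by limma. Without array 2955 the Hr3 difference was 0.99 and was called (adjusted p = 0.00737, limma). For ImpL2, called with each protein, the difference was 0.05 with an interval of -0.45 to 0.54. Single rows of br and E23 did differ: LP12157 of br by -0.74 ± 0.20 (adjusted p = 0.0166) and RE53253 of E23 by 0.56 ± 0.17 (adjusted p = 0.0256), each n = 8 by limma.

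Among the listed pathway genes 6 of 25 were higher and 4 lower with Dam-Lam, beside 20.3% of all units higher and 14.9% lower. With Dam-Lam delta CaaX 6 of 24 were higher and 5 lower, beside 16.1% and 16.4% of all units. These counts were not tested against the shares of all units. ImpE1, first found as an ecdysone-induced gene of imaginal discs, was on the Dam-Lam side (0.85 ± 0.14) and on the opposite side with Dam-Lam delta CaaX (-0.47 ± 0.15), a difference of 1.32 ± 0.23 (n = 8, adjusted p = 0.00179, limma). Oatp74D, the ecdysone importer gene, was the lowest of them with Dam-Lam delta CaaX (-1.93 ± 0.13, n = 4, adjusted p = 4.03e-05, limma). Ilp2, which encodes an insulin-like peptide that ImpL2 protein binds, was higher with Dam-Lam (1.36 ± 0.15, n = 4, adjusted p = 0.00288, limma). The juvenile hormone response gene Kr-h1 (-0.62 ± 0.14, n = 4, adjusted p = 0.0165, limma) was lower. Of the partners of vri in the clock, cyc was lower (adjusted p = 0.00640) and tim higher (0.97 ± 0.26, adjusted p = 0.0365), with n = 4 and n = 3 arrays by limma.

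With TSA the Dam-Lam signal fell, relative to Dam, at ImpL2, Eip63E, Hr3 and E23, and rose at DopEcR. These are 4 members lower and 1 higher of 9, beside 17.6% of 7089 units lower and 12.4% higher. The median change was -0.16 for the members and -0.02 for all units. Each change is that of Dam-Lam minus that of Dam, from a model of all 10 TSA arrays, so Dam's own change comes first. For the TSA results n = 10 counts the arrays of that model. The change of a protein is itself the mean of its 2 arrays with over without TSA. The other arrays of the model add only to the estimates of spread and dye effect.

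Dam alone changed at MsrA and br, 1 lower and 1 higher of 9, beside 16.0% of units lower and 15.6% higher. MsrA read -0.65 and -0.64 on arrays 3690 and 3691 with over without TSA, nearly equal on the exchanged dyes (-0.65 ± 0.09, n = 10 arrays in the model, adjusted p = 0.000519, limma). This was at percentile 2.95 of all units. For br the values were 0.44 and 0.30 (0.37 ± 0.10, n = 10, adjusted p = 0.0143, limma), and the call was lost without array 3690 (0.26, adjusted p = 0.219, limma). The Dam arrays disagreed in sign for DopEcR (-0.36 and 0.25), Eip63E (0.36 and -0.06), Hr3 (0.22 and -0.07) and ImpL2 (0.11 and -0.10), whose fits were between -0.06 and 0.15.

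ImpL2 showed the largest loss of Dam-Lam signal. With over without TSA it read -0.89 and -1.0001 for Dam-Lam (arrays 3686 and 3687), against 0.11 and -0.10 for Dam. The groups lay far apart, and the difference was -0.95 ± 0.15 (n = 10, adjusted p = 0.00142, limma). In treated cells ImpL2 read 0.00 and -0.09 for Dam-Lam over Dam, so the excess seen in untreated cells was not present on either array. Eip63E read -0.73 and -0.41 for Dam-Lam, both below the Dam arrays, and differed by -0.72 ± 0.17 (n = 10, adjusted p = 0.00808, limma). It kept a Dam-Lam over Dam ratio of 0.56 and 0.37 with TSA, above 0 on both arrays.

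Hr3 read -0.23 and -0.70 for Dam-Lam (-0.54 ± 0.16 against Dam, n = 10, adjusted p = 0.0245, limma). E23 read -0.16 and -0.26 for Dam-Lam and 0.37 and 0.04 for Dam. The difference was -0.41 ± 0.14 (n = 10, adjusted p = 0.0393, limma). Only the RE53253 row of E23 was called when tested singly (-0.58, adjusted p = 0.0262, against -0.25 and 0.188 for LP01481, limma). DopEcR went the other way, at 0.49 and 0.63 for Dam-Lam against -0.36 and 0.25 for Dam (0.62 ± 0.18, n = 10, adjusted p = 0.0228, limma). The Dam arrays of DopEcR were apart by as much as the change itself. MsrA, whose Dam-Lam arrays fell to -0.87 and -0.74, differed from Dam by -0.16 ± 0.13 (n = 10, adjusted p = 0.387, limma), and EcR (0.25), vri (0.04) and br (0.02) were not called.

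Several of these calls rested on single arrays. Without array 3686 the adjusted p was 0.130 for Eip63E, 0.107 for Hr3, 0.182 for E23 and 0.149 for DopEcR. Without 3687 Hr3 (0.138), E23 (0.144) and DopEcR (0.0883) were lost. Without 3690 Eip63E (0.0744), E23 (0.218) and DopEcR (0.196) were lost, and without 3691 Hr3 (0.0891), all by limma. The E23 call was also lost without array 3692 or 3693 (0.0581) or 3688 or 3689 (0.0586), and ImpL2 stayed called without any 1 array. When all arrays were scaled to the same spread, the Dam-Lam change of no member was called, and of no unit (ImpL2 -0.61, adjusted p = 0.198, limma).

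Dam-Lam delta CaaX lost signal with TSA at ImpL2 and MsrA and gained it at DopEcR. These are 2 lower and 1 higher of 9, beside 20.4% of units lower and 16.2% higher. ImpL2 read -1.40 and -1.39 on arrays 3692 and 3693, the same on exchanged dyes, and differed from Dam by -1.40 ± 0.15 (n = 10, adjusted p = 0.000216, limma). Only 0.23% of units ranked as low or lower. MsrA read -1.36 and -1.37, again alike beside -0.65 and -0.64 for Dam, a difference of -0.71 ± 0.13 (n = 10, adjusted p = 0.00177, limma).

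DopEcR read 0.43 and 0.74 (0.64 ± 0.18 against Dam, n = 10, adjusted p = 0.0164, limma). That call was lost without array 3690 (0.39, adjusted p = 0.146), 3692 (0.0681) or 3693 (0.113), by limma. Eip63E read -0.05 and 0.01, next to no change, and differed from Dam by -0.17 ± 0.17 (n = 10, adjusted p = 0.450, limma). For br (-0.37 ± 0.14, adjusted p = 0.0557), Hr3 (-0.32 ± 0.16), EcR (0.10), E23 (-0.08) and vri (0.07) the change was not called, each n = 10 by limma. Without array 3691 the br value was -0.48 and was called (adjusted p = 0.0381, limma). With all arrays scaled to the same spread the ImpL2 change stayed called, and those of MsrA (-0.33, adjusted p = 0.145) and DopEcR (0.49, adjusted p = 0.158) did not (limma).

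**Figure D4:**
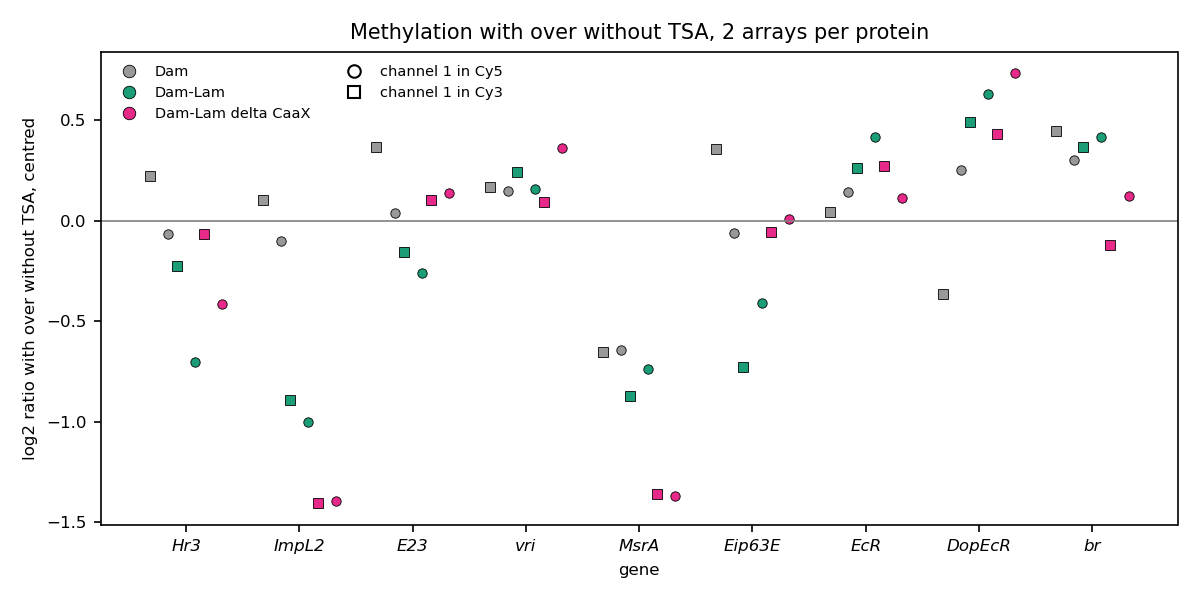
Log2 ratio with over without TSA, centred on the array median, for each member on 2 arrays each of Dam, Dam-Lam and Dam-Lam delta CaaX (circles, channel 1 in Cy5; squares, channel 1 in Cy3). ImpL2 lies at or below -0.89 with both fusion proteins and near 0 with Dam, MsrA lies below 0 with all 3, and the Dam-Lam arrays of Eip63E (-0.73 and -0.41) lie below its other arrays.

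The TSA change of the full-length and truncated proteins was also compared directly, a test added after the values were seen. It called 3 members higher and 1 lower for Dam-Lam minus Dam-Lam delta CaaX, beside 18.9% of units higher and 19.1% lower. Both comparisons with Dam share the Dam arrays. This difference holds no Dam change but comes from the same model of 10 arrays, and without Dam array 3690 or 3691 E23 was called lower as well (-0.33, adjusted p = 0.0440, limma). Eip63E fell further with Dam-Lam (-0.55 ± 0.17, adjusted p = 0.0237). MsrA (0.56 ± 0.13, adjusted p = 0.00669), ImpL2 (0.45 ± 0.15, adjusted p = 0.0354) and br (0.39 ± 0.14, adjusted p = 0.0450) fell further, or rose less, with Dam-Lam delta CaaX, each n = 10 by limma. Leaving out array 3692 ended all 4 calls (adjusted p from 0.0510 to 0.339) and so did leaving out 3693 (0.0699 to 0.156). Without 3686 Eip63E (0.270), ImpL2 (0.197) and br (0.160) were lost, and without 3687 MsrA (0.0691), ImpL2 (0.0979) and br (0.169). Without 3688 or 3689 ImpL2 (0.0524) and br (0.0609) were lost.

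The TSA experiment holds no array of fusion protein over Dam without TSA, but its model implies those ratios, and they can be set beside the untreated arrays. For Dam-Lam the implied and the measured value were 0.90 and 0.77 for ImpL2, 1.18 and 0.82 for Eip63E, 0.87 and 0.74 for E23, and 0.64 and 0.60 for Hr3. DopEcR was at -0.40 and -0.39. Of the 7 members read on the same rows in both, 6 had the same sign, MsrA being the other at -0.19 and 0.07. For br, row LP12157 alone gave 0.04 implied and -0.19 measured. For Dam-Lam delta CaaX several members lay close: Hr3 was -0.11 implied and -0.10 measured, MsrA 0.33 and 0.34, and E23 0.30 and 0.35. So did vri at 0.09 and 0.02, and br at 0.56 and 0.55 on row LP12157. Eip63E (0.15 and 0.35) and DopEcR (-0.56 and -0.29) kept their sign but differed more in size. ImpL2 was 1.52 implied and 0.72 measured. EcR, the only member of opposite sign, was -0.09 implied against 0.66 measured.

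Of the listed pathway genes, 5 of 21 fell and 3 rose with TSA for Dam-Lam, beside 17.6% of all units lower and 12.4% higher. For Dam-Lam delta CaaX 2 fell and 3 rose, beside 20.4% and 16.2% of units. For Dam 3 fell and 3 rose, beside 16.0% and 15.6%. These counts were not tested against the shares of all units. For Dam-Lam, Ilp2 fell (-0.74 ± 0.15, adjusted p = 0.00350), as did the clock gene Clk (-0.60 ± 0.15, adjusted p = 0.00991), and cyc rose (0.50 ± 0.17, adjusted p = 0.0390), each n = 10 by limma. For Dam alone the largest of them was Cth, lower by 0.84 on the log2 scale (-0.84 ± 0.17, n = 10, adjusted p = 0.00334, limma).

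Whether ecdysone moves these genes at the lamina could hardly be tested. The direct test of Dam-Lam with over without ecdysone, minus the same for Dam, called 0% of 7089 units, and so 0 of the 9 members (217 units had an unadjusted p under 0.05). E23 read -0.02 and -0.06 for Dam-Lam and -0.39 and -0.82 for Dam. The difference was 0.57 ± 0.28 (n = 4, 95% interval -0.03 to 1.16, adjusted p = 0.999, limma). It averages rows at 0.85 (LP01481) and 0.29 (RE53253). Eip63E read -0.51 and 0.11 for Dam-Lam and 0.49 and 0.18 for Dam (-0.54 ± 0.30, interval -1.18 to 0.11). Hr3, the transcript with the largest increase, read 0.08 and -0.03 for Dam-Lam and -0.15 and -0.61 for Dam (0.40 ± 0.27, interval -0.19 to 1.00). For the others the estimate ran from -0.21 (DopEcR) to 0.44 (vri, with rows at 0.68 for RE55084 and 0.19 for RE29005).

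**Figure D5:**
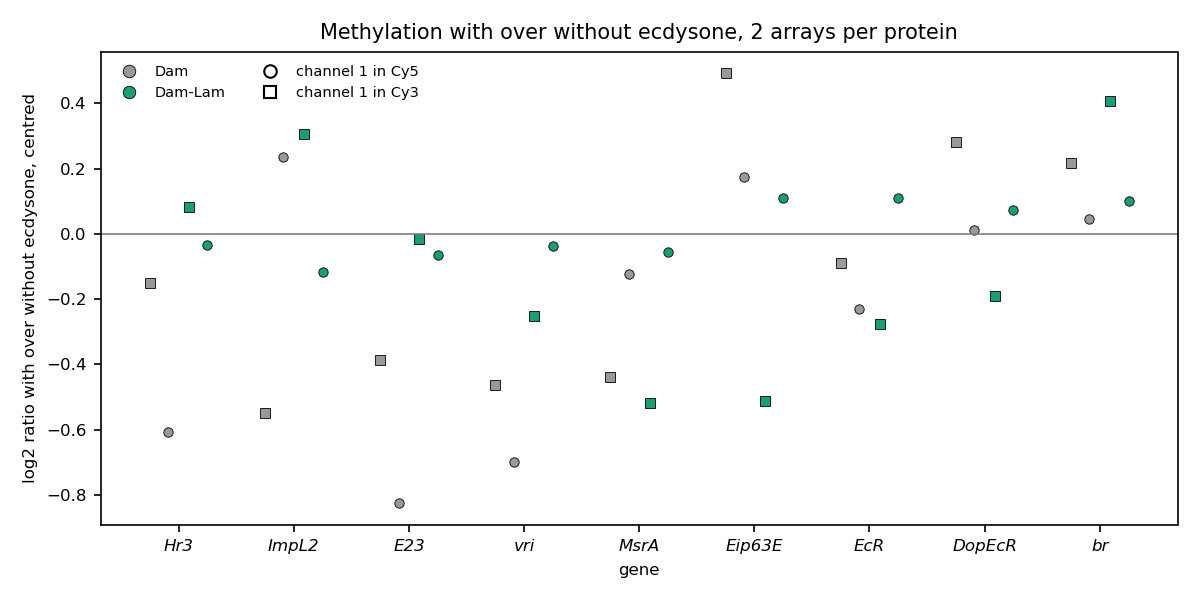
Log2 ratio with over without ecdysone, centred on the array median, for each member on 2 arrays each of Dam and Dam-Lam (circles, channel 1 in Cy5; squares, channel 1 in Cy3). The 2 arrays of a protein often lie apart, as for Eip63E with Dam-Lam (-0.51 and 0.11), and no member was called.

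The 6 arrays of Dam-Lam over Dam with or without ecdysone are given here as values only, since their sign is unsettled. Without ecdysone, Eip63E read 0.16, -1.23 and -1.54 on arrays 3434, 3441 and 3443, E23 read -0.03, -1.43 and -1.08, and ImpL2 read 0.20, -1.32 and -0.93. Arrays 3441 and 3443 thus gave values opposite to the untreated Dam-Lam arrays for the same genes, and with the sign turned they would be above 0. With ecdysone the same genes read -0.09, 0.80 and 0.47 (Eip63E), -0.21, 0.83 and -0.05 (E23) and -0.33, 0.41 and 0.20 (ImpL2) on arrays 3428, 3436 and 3442. No comparison of the treated with the untreated arrays was made from them.

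Across 25 arrays outside the ecdysone DamID experiment the members did not form 1 group. The Pearson correlation over these arrays, which mix mRNA and DamID ratios and share cells and treatments, was highest for ImpL2 with MsrA (0.90) and for ImpL2 with Eip63E (0.77). It was lowest for DopEcR with MsrA (-0.80), and br with vri gave -0.72. Among all genes the most alike were BNIP3 for MsrA (0.97), Bicra for DopEcR (0.96), Mec2 for ImpL2 (0.95) and sm for E23 (0.92). They were CG4586 for vri (0.90), Act79B for Eip63E (0.88), CG31778 for Hr3 (0.84) and papi for br (0.83). EcR had values on 19 of these arrays, too few for the minimum of 20.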

How the data were processed

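The authors deposited log ratios of both channels for each array, per the submitters' processing notes made with limma, and no label or header used here gives its version, the background correction, the normalization, the log base or the direction of the ratio. The deposited values were taken as log2, since the largest, 11.6, exceeds the natural log of the 16-bit ceiling (11.1). Per the labels' protocols, RNA was extracted with TRIzol and mRNA amplified with a T7 system. Spot intensities were not used here, so the depth behind a value and its part in the precision are unknown. The small number of arrays limits the precision. Rows were named from the platform's probe table (7843 rows name 1 gene, 246 several, and 917 were not in it), and rows of a gene were averaged, giving 8421 units. Each array was centred on its median (-0.22 to 0.14 before).

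Each comparison was a two-sided test in a linear model over the whole table (R 4.3.3, limma 3.58.1, lmFit then eBayes) that also held a dye effect for each gene. Units with values on under 75% of a model's arrays were left out. P-values were adjusted over the whole table (Benjamini-Hochberg), and calls are adjusted values under 0.05. Errors are SE of the fit, and n counts the arrays of the model, which for the TSA changes is more than the arrays that measure a change directly. The 10 TSA arrays made 1 model, and the 4 direct arrays the ecdysone DamID model. The script was tested on simulated data. Alternatives were no centring, no dye term, a value on every array, arrays scaled to the same median absolute deviation, each row singly and each array left out. For ecdysone DamID, all 10 arrays were also fitted, as deposited and with the Cy3 Dam-Lam over Dam arrays turned in sign. Turning by dye sets against each other the pairs that agreed as deposited, 3441 with 3443 (correlation 0.88) and 3436 with 3442 (0.70). Members and lists were chosen with earlier results of these data known. Named genes are the members, up to 3 called genes with the largest change per pathway list and comparison, and the genes most alike over at least 20 arrays. Not all of the list genes so chosen are given. Hemocyte, neuron, muscle, fat body and germline markers were checked. Muscle markers lay between percentile 31.98 and 63.62 of mRNA level, and germline markers between 4.55 and 75.03.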

Additional observations from a re-analysis of the deposited data

Results flagged for a closer look

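For vri in the Dam-Lam over Dam group, array 2955 read 0.61 while the others lay between -0.09 and 0.03, and its gap to the nearest array was 0.84 of the group's range. Its rows read 0.30 (RE29005) and 0.92 (RE55084) there. It was the one array that stood apart among 26 sets of 4 or 5 arrays tested, and chance gives about 1 in 20. The change with TSA differed between the full-length and the truncated lamin at 4 members by the direct test of that difference, which was chosen after seeing the data (limma, n = 10 arrays). It was -0.55 for Eip63E, which lost more signal with Dam-Lam, and 0.56 for MsrA, 0.45 for ImpL2 and 0.39 for br, which were lower with Dam-Lam delta CaaX. None of the 4 calls held when array 3692 or 3693 was left out or when all arrays were scaled to the same spread.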

How the results depend on the processing

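Of 26 calls of a member, 7 passed under every alternative run: Hr3, ImpL2, E23 and MsrA for mRNA with ecdysone, ImpL2 for untreated Dam-Lam delta CaaX and for its TSA change, and MsrA for the TSA change of Dam. No called value changed sign under any alternative. No paired analysis was possible because the array numbers are unique and no groups share one; leaving out an array of the ecdysone DamID fit left no residual degrees of freedom and was not run. The cause of the changes below was not tested, except that fewer arrays leave fewer degrees of freedom. Leaving out 1 array moved the count of all units called as follows, lowest to highest: mRNA 55 to 353 higher and 29 to 456 lower, the highest without array 3427; Dam-Lam 7 to 2207 higher and 4 to 2031 lower; Dam-Lam delta CaaX 476 to 1678 and 551 to 1688; their difference 633 to 1175 lower. For TSA it was 219 to 974 higher and 497 to 1331 lower for Dam-Lam, 399 to 1221 and 695 to 1513 for Dam-Lam delta CaaX, 277 to 1734 and 687 to 1569 for their difference (a contrast chosen after seeing the data), and 356 to 1177 and 546 to 1188 for Dam. Members called moved with it: untreated Dam-Lam 0 to 4 higher and 0 to 1 lower, Dam-Lam delta CaaX 1 to 5 higher, their difference 0 to 1 higher; with TSA 0 to 1 higher and 1 to 4 lower for Dam-Lam, 0 to 1 higher for Dam-Lam delta CaaX, 0 to 3 higher and 0 to 2 lower for their difference, and 0 to 1 higher for Dam. Without the dye term 1 member was lower for Dam-Lam, 1 higher for Dam-Lam minus Dam-Lam delta CaaX, 0 higher and 2 lower for the TSA change of Dam-Lam, and 848 units, 1 of them a member, were higher for the TSA difference. With arrays scaled to the same spread, the TSA change of Dam-Lam gave 0 units and 0 members in either direction, that of Dam-Lam delta CaaX 285 higher and 449 lower (members 0 and 1), their difference 3 and 95 (members 0 and 0), and the ecdysone change of Dam-Lam 2 and 2. Signs changed only for uncalled values. Single rows gave br -0.19 (Dam-Lam) and 0.14 (Dam-Lam minus Dam-Lam delta CaaX), vri -0.028 (Dam-Lam delta CaaX), -0.074, -0.075 and 0.0011 (the TSA changes and their difference) and E23 0.045 (TSA, Dam-Lam delta CaaX). Scaling gave ImpL2 -0.14 (untreated difference) and -0.0038 (TSA, Dam), br -0.16, MsrA 0.21 and vri -0.046 (TSA, Dam-Lam), vri -0.0030 (TSA, Dam-Lam delta CaaX) and MsrA 0.026 (ecdysone). No centring gave ImpL2 -0.027 (TSA, Dam). All 10 ecdysone arrays as deposited gave br -0.064, EcR -0.031, Eip63E 0.55 and MsrA 0.07, all of unsettled direction. Leaving out 1 array crossed 0 for Dam-Lam at MsrA (-0.018 to 0.16) and vri (-0.028 to 0.26), for Dam-Lam delta CaaX at vri (-0.11 to 0.15), and for their difference at ImpL2 (-0.18 to 0.23) and vri (-0.066 to 0.24). With TSA it did so for Dam-Lam at br (-0.091 to 0.13) and vri (-0.040 to 0.13), for Dam-Lam delta CaaX at E23 (-0.21 to 0.045), EcR (-0.020 to 0.22), Eip63E (-0.41 to 0.064) and vri (-0.063 to 0.20), for their difference at DopEcR (-0.077 to 0.028) and vri (-0.16 to 0.11), and for Dam at DopEcR (-0.30 to 0.19), Eip63E (-0.087 to 0.38), Hr3 (-0.0007 to 0.16) and ImpL2 (-0.12 to 0.13). The small number of arrays limits the precision, and the part of spot signals in it was not tested.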
